A study of Mus musculus with 9 samples.

Results

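The epidermal growth factor (EGF) family ligands and their ErbB receptors were followed through 9 RNA-seq libraries of sorted mouse intestinal epithelial cells. The 10 genes were chosen by name and not by a cut on their values, though earlier results of these data were known. The set holds the 7 ligands Areg, Ereg, Egf, Hbegf, Btc, Tgfa and Epgn and the 3 receptors Egfr, Erbb2 and Erbb3. They are 10 of the 78239 genes in the deposited table, and all 10 passed the filter on low counts that left 20610 genes for the tests. The mice carried Lgr5-2A-eGFP, an allele that couples green fluorescent protein (GFP) to Lgr5, a receptor of intestinal stem cells. They were 8 weeks old, and no other allele or treatment is named. Crypts were freed by chelation, digested with TrypLE and sorted by flow cytometry on GFP, and no surface marker is named for the gate. There were 3 groups of 3 libraries: GFP-high cells of the colon (colon GFP-high), GFP-negative cells of the colon (colon GFP-negative) and cells of the small intestine. Which GFP fraction the small intestinal cells belong to is not stated, so region and fraction cannot be told apart in any comparison with them. Separate animals are not stated either, and p-values therefore cover only the spread between these samples, which may be technical.

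EGF family ligands are made as membrane-bound precursors, and proteases of the ADAM family cut them free to bind receptors on the same cell or its neighbours. A bound ligand brings ErbB receptors together in pairs, which switches on the Ras–MAPK and PI3K–Akt pathways. Egfr binds the 7 ligands studied here. Erbb2 binds no known ligand and works as a partner of the other receptors, and Erbb3 binds some neuregulins and has little kinase activity of its own. In the gut, EGF is a standard additive of organoid medium, and signalling through these receptors sustains division in the crypt.

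Of the ligand genes, 4 lay side by side on chromosome 5 (GRCm38, GENCODE M21). Epgn spanned 91027464 to 91035215, Ereg 91074622 to 91093646 and Areg 91139599 to 91148432, all on the plus strand, and Btc spanned 91357261 to 91402994 on the minus strand. No other protein-coding gene lay within the 375531 bases from the start of Epgn to the end of Btc. Egf lay on chromosome 3 (129677565 to 129755316, minus strand) and Tgfa on chromosome 6 (86195223 to 86275719, plus strand). The receptor genes Egfr (16752203 to 16918158) and Erbb2 (98412470 to 98437716) lay on the plus strand of chromosome 11, and Erbb3 lay on the minus strand of chromosome 10 (128567523 to 128589652).

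Upstream sequence from RefSeq (GRCm38.p6) was used for 7 of the 10 genes, and not for Ereg, Hbegf and Erbb3. It is shown for Areg, whose transcript level varied widely between libraries, for Tgfa, which had the smallest spread of the ligands, and for Erbb2, the most abundant receptor. Each is the 250 bases before the RefSeq transcription start, 5′ to 3′ on the gene's strand, which is plus for all of them. Capitals mark a match to TGACGTCA, the cyclic AMP response element (CRE), or to TATAAA, the TATA box. The windows are chr5:91139349-91139598 for Areg, chr6:86194972-86195221 for Tgfa and chr11:98412234-98412483 for Erbb2.
Areg: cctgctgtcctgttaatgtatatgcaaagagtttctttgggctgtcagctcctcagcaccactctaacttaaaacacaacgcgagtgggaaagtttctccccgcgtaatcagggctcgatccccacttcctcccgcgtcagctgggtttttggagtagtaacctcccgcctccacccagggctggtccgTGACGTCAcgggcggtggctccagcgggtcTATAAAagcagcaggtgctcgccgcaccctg
Tgfa: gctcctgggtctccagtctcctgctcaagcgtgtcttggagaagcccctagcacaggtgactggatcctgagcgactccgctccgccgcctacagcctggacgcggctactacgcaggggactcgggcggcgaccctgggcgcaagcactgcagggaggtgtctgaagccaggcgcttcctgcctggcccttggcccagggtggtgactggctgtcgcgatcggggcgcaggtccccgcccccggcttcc
Erbb2: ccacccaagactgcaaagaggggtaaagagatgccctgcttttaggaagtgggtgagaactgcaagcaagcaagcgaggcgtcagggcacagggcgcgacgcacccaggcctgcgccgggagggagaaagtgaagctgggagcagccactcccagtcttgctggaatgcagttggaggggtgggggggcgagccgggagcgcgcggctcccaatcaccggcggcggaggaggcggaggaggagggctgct
The Areg window held TGACGTCA beginning 61 bases before the start and TATAAA beginning 31 bases before it. Of 32851 mouse windows of the same length, 1.55% held TGACGTCA and 12.4% held TATAAA, each searched on both strands. The Tgfa and Erbb2 windows held neither sequence, nor TGANTCA, the AP-1 motif found in 6.75% of windows, nor ATCAAAG, the TCF motif found in 3.21%. No search motif overlapped another match in these windows. A match describes the letters of a window and says nothing of binding.

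The libraries held 86621513 to 106673547 counts, and 3 counts made 0.0232 to 0.0411 CPM (read counts scaled to library size, with the totals multiplied by the deposited TMM factors). The epithelial marker Epcam stood at 3017 to 6207 CPM, while Cdh5, a marker of endothelium, had no count and Col1a1, a marker of fibroblasts, reached at most 0.192 CPM. Other genes of those marker lists had counts. The 10 stromal cell markers summed to 4.20 to 59.6 CPM in colon and 2.41 to 8.17 CPM in small intestine. The 6 endothelial cell markers summed to 4.51 to 14.0 and 9.62 to 20.8 CPM. Lgr5 itself went against the labels in 1 pair. It had 43.5, 0.958 and 73.0 CPM in the libraries labelled colon GFP-high 1, 2 and 3, and 2.84, 62.1 and 6.28 CPM in those labelled colon GFP-negative 1, 2 and 3. The small intestinal libraries had 57.9, 120 and 209 CPM. Every direction between the colon fractions below is therefore a direction between labels, and the calls of members and pathway genes were also counted without the libraries labelled colon replicate 2.

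Areg, which encodes amphiregulin, was the ligand whose level differed most between libraries of 1 group in CPM. It stood at 1.65, 10.1 and 24.1 CPM in the libraries labelled colon GFP-high 1, 2 and 3, at 4.11, 1.35 and 22.2 CPM in those labelled colon GFP-negative 1, 2 and 3, and at 3.62, 0.976 and 4.13 CPM in small intestine 1, 2 and 3. The libraries labelled colon GFP-high 2, colon GFP-high 3 and colon GFP-negative 3 were high, the other 3 colon libraries lay within the small intestinal range, and the groups overlapped. The highest colon library had 17.9 times the level of the lowest.

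Several marker lists also varied between the colon libraries, and their part in the Areg levels was not tested. The 17 immune cell markers summed to 3.46, 333 and 21.5 CPM in the libraries labelled colon GFP-high 1, 2 and 3 and to 666, 4.28 and 2871 CPM in those labelled colon GFP-negative 1, 2 and 3. In small intestine they summed to 16.3 to 52.7 CPM. Ptprc, the pan-leukocyte gene CD45, had 0.916 to 89.7 CPM in colon. The 9 colonocyte markers summed to 3106, 37396 and 16308 CPM in the libraries labelled colon GFP-high 1, 2 and 3 and to 22891, 8941 and 43726 CPM in those labelled colon GFP-negative 1, 2 and 3. The library labelled colon GFP-negative 1 had 22891 CPM of colonocyte markers and 666 CPM of immune markers beside 4.11 CPM of Areg. The 9 tuft cell markers summed to 204, 485 and 892 CPM in the libraries labelled colon GFP-high 1, 2 and 3, to 171, 141 and 223 CPM in those labelled colon GFP-negative 1, 2 and 3 and to 182, 338 and 1279 CPM in small intestine. The 3 colon libraries highest in Areg also had the 3 highest tuft sums of the colon libraries, with small gaps. The library labelled colon GFP-negative 3 had 223 CPM beside 22.2 CPM of Areg. That labelled colon GFP-high 1 had 204 CPM beside 1.65 CPM of Areg, and small intestine 2 had 338 CPM beside 0.976 CPM. In colon the 12 enteroendocrine markers summed to 225 to 12938 CPM and the 11 Paneth cell markers to 33.2 to 5204 CPM. Because these are bulk libraries, fewer cells of a type and less RNA per cell cannot be told apart.

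The neighbours of Areg on chromosome 5 had other levels. Btc, which encodes betacellulin, stood at 4.45, 6.84 and 7.15 CPM in the libraries labelled colon GFP-high 1, 2 and 3, at 8.61, 8.67 and 5.10 CPM in those labelled colon GFP-negative and at 7.98, 8.05 and 10.4 CPM in small intestine. Its groups overlapped, and the highest colon library had 1.95 times the lowest. Ereg, which encodes epiregulin, had 0 to 77 counts per library. Its levels were 0, 0.185 and 0.717 CPM in the GFP-high colon libraries, 0.233, 0.339 and 0 CPM in the GFP-negative ones and 0.823, 0.517 and 0.232 CPM in small intestine. Per transcript length it was the least abundant member by the mean over the 9 libraries, though not in every group. In small intestine it averaged 0.127 RPKM (CPM per kilobase), beside 0.104 for Egf and 0.0908 for Epgn. It was listed at 0 in the libraries labelled colon GFP-high 1 and colon GFP-negative 3. Epgn, which encodes epigen, had 0 to 74 counts, and its levels were 0.706, 0.0218 and 0.335 CPM in the GFP-high colon libraries, 0.0518, 0.0598 and 0 CPM in the GFP-negative ones and 0, 0.0586 and 0.434 CPM in small intestine. The libraries labelled colon GFP-high 1, colon GFP-high 3 and small intestine 3 held most of its counts.

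Tgfa, which encodes transforming growth factor alpha, was nearly level across the libraries. It stood at 12.6, 9.14 and 10.6 CPM in the libraries labelled colon GFP-high 1, 2 and 3, at 9.51, 8.13 and 8.52 CPM in those labelled colon GFP-negative and at 9.71, 7.72 and 10.2 CPM in small intestine. The groups overlapped throughout. Hbegf, on chromosome 18 (36504927 to 36515805, minus strand), encodes heparin-binding EGF-like growth factor. It stood at 4.70, 8.14 and 15.5 CPM in the GFP-high colon libraries, at 9.97, 3.85 and 10.6 CPM in the GFP-negative ones and at 12.5, 7.13 and 11.4 CPM in small intestine. Its lowest values were in the libraries labelled colon GFP-negative 2 and colon GFP-high 1, and the small intestinal values lay inside the colon range.

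Egf, the founding ligand of the family, had 5.44, 2.92 and 2.61 CPM in the libraries labelled colon GFP-high 1, 2 and 3 and 4.35, 4.68 and 1.95 CPM in those labelled colon GFP-negative 1, 2 and 3. In small intestine 1, 2 and 3 it had 0.480, 0.820 and 2.23 CPM. Small intestine 3 lay above the library labelled colon GFP-negative 3, so the regions overlapped by that pair, and the other 5 colon libraries were above all small intestinal ones.

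**Figure D1:**
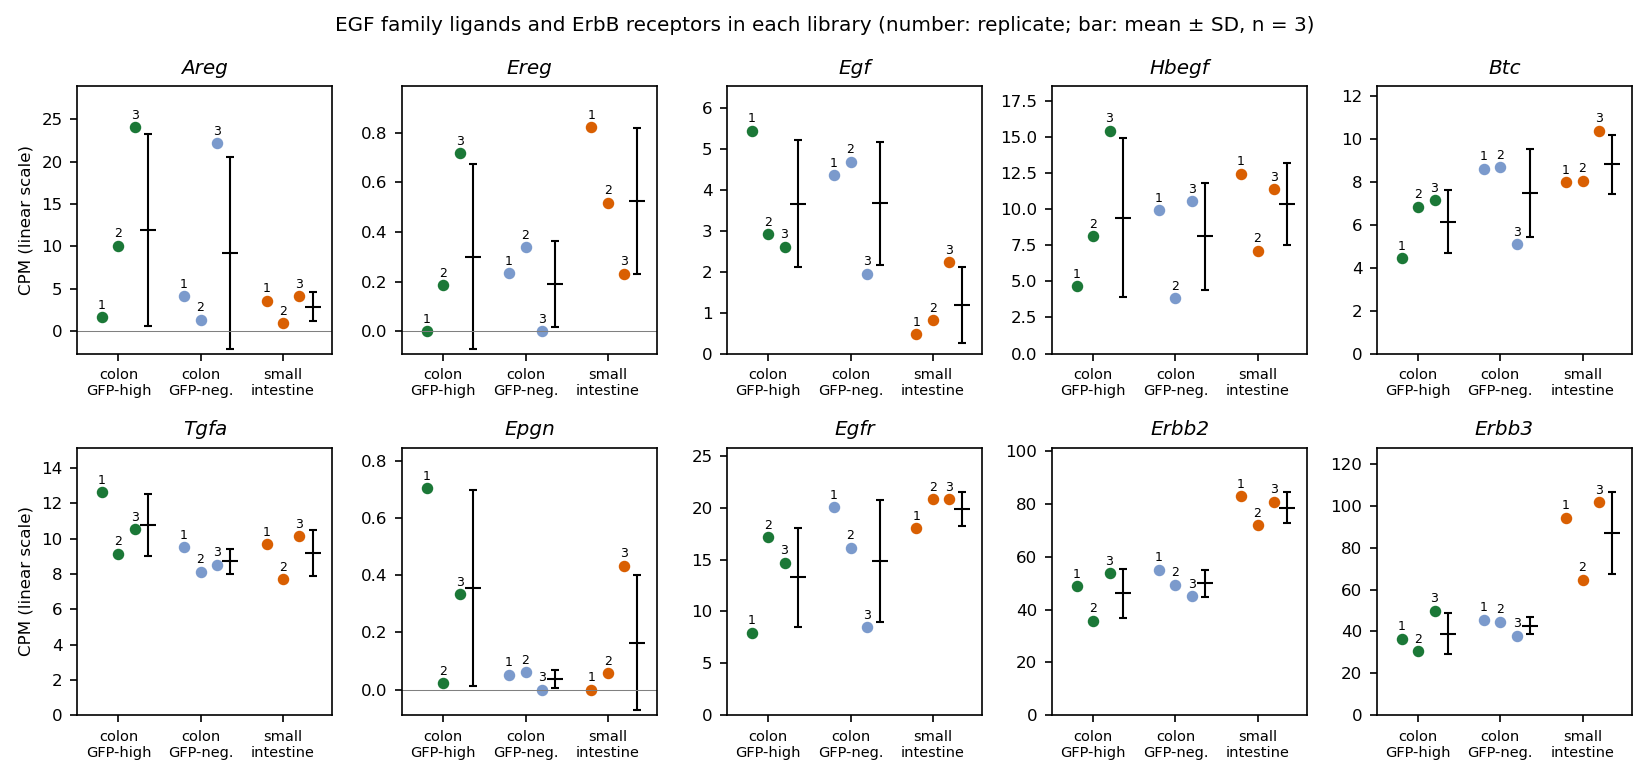
Level of each member (CPM, linear axes that differ between panels) in every library, as a point numbered by replicate, with the mean ± SD of each group (n = 3) as a bar. Erbb2 and Erbb3 are higher in all small intestinal libraries than in any colon library, while Areg is high in 3 of 6 colon libraries across both labelled fractions.

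Erbb2 varied little within a region. Erbb2 stood at 48.9, 35.7 and 53.7 CPM in the libraries labelled colon GFP-high 1, 2 and 3, at 55.1, 49.4 and 45.2 CPM in those labelled colon GFP-negative and at 83.1, 72.0 and 80.9 CPM in small intestine. All 6 colon libraries lay below all 3 small intestinal ones. Erbb3 stood at 36.5, 30.4 and 49.9 CPM in the GFP-high colon libraries, at 45.6, 44.7 and 37.9 CPM in the GFP-negative ones and at 94.3, 64.7 and 102 CPM in small intestine. Here too the regions did not overlap, and small intestine 2 was the lowest of its group. Such a separation, colon below small intestine, was found in 8.39% of the genes tested, and the opposite one in 9.49%.

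Egfr, the receptor for all 7 ligands, stood at 7.94, 17.2 and 14.7 CPM in the libraries labelled colon GFP-high 1, 2 and 3, at 20.1, 16.2 and 8.49 CPM in those labelled colon GFP-negative and at 18.0, 20.8 and 20.9 CPM in small intestine. The libraries labelled colon GFP-high 1 and colon GFP-negative 3 were low, and the library labelled colon GFP-negative 1 lay within the small intestinal range.

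Compared per transcript length, as RPKM, which is CPM per kilobase, Erbb2 and Erbb3 led the family. The mean level over the 9 libraries was 11.2 RPKM for Erbb2 and 9.34 RPKM for Erbb3, and the ratio of Erbb2 to Erbb3 lay between 0.917 and 1.55, so their order was not the same in every library. Areg followed with 6.60 RPKM, with single libraries from 0.804 to 19.8 RPKM, and in the libraries labelled colon GFP-high 2, colon GFP-high 3 and colon GFP-negative 3 it passed both receptors. Hbegf (1.93 RPKM), Btc (1.65 RPKM), Tgfa (1.47 RPKM) and Egfr (1.41 RPKM) came next, and their ranges over the libraries overlapped. Egf (0.251 RPKM), Epgn (0.103 RPKM) and Ereg (0.0820 RPKM) were lowest, and each overlapped the others over the libraries.

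Among the 3 receptors, Erbb2 held 45.3% to 58.1% of the summed RPKM, Erbb3 held 37.6% to 49.4% and Egfr held 4.34% to 11.3%. Erbb2 had 4.52 to 13.4 times the RPKM of Egfr, and Erbb3 had 3.34 to 9.85 times. The ligand pool was less even, and its summed RPKM ran from 5.48 to 26.8. Areg made up 14.7% to 79.2% of it, with a median of 33.6%. In the libraries labelled colon GFP-high 2 and 3 its share was 62.8% and 73.9%, and in the library labelled colon GFP-negative 3 it was 79.2%. Btc held 4.90% to 34.2%, Hbegf 9.50% to 28.5% and Tgfa 5.70% to 31.8%. Egf, Epgn and Ereg held at most 7.86%, 6.37% and 2.29%.

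**Figure D2:**
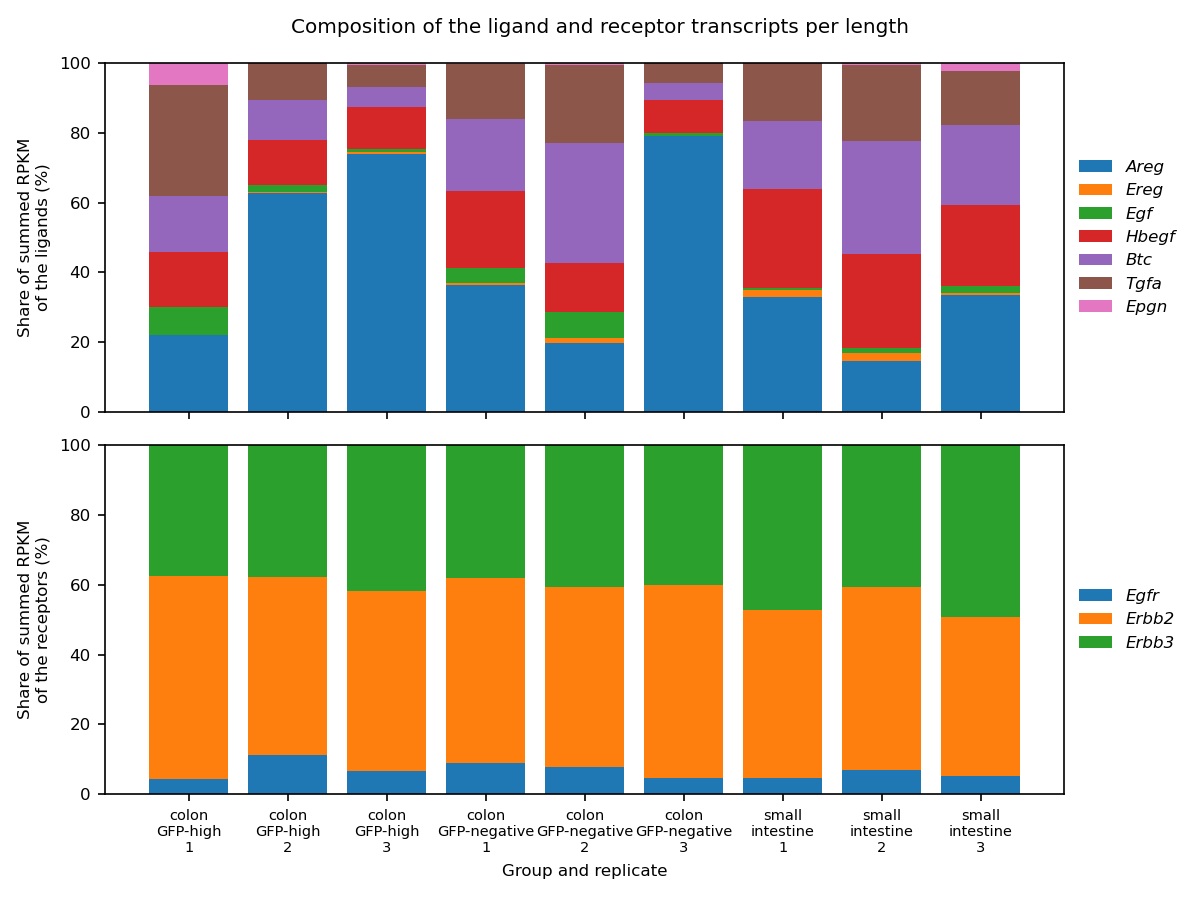
Share (%) of each ligand in the summed RPKM of the 7 ligands (upper panel) and of each receptor in that of the 3 receptors (lower panel), as stacked bars, 1 per library. Areg ranges from 14.7% to 79.2% of the ligand pool, while Erbb2 holds 45.3% to 58.1% and Egfr 4.34% to 11.3% of the receptor pool.

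Erbb2 and Erbb3 were lower in colon than in small intestine, and no ligand was called between the regions. In the comparison of the mean of both colon fractions with small intestine, edgeR's quasi-likelihood test called 1812 of the 20610 genes at an adjusted p under 0.05 (Benjamini-Hochberg), which is 8.79%, with 3.79% lower in colon. Of the 10 members 2 were called, both lower in colon. Erbb3 averaged 40.8 ± 7.14 CPM in colon (SD, n = 6) and 87.0 ± 19.6 CPM in small intestine (SD, n = 3), a log2 fold change of -1.09 (SE 0.218, edgeR adjusted p = 0.0165). Erbb2 averaged 48.0 ± 6.99 CPM in colon (SD, n = 6) and 78.6 ± 5.88 CPM in small intestine (SD, n = 3), a log2 fold change of -0.71 (SE 0.182, edgeR adjusted p = 0.0435). Egfr had a log2 fold change of -0.50 (SE 0.319, edgeR adjusted p = 0.368) and was not called.

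The Erbb2 call rested on every library. It was lost when any 1 of the 9 was left out, with edgeR adjusted p between 0.0651 and 0.154, and the log2 fold change then stayed between -0.76 and -0.64. The Erbb3 call was lost without small intestine 1 (edgeR adjusted p = 0.0660) and without small intestine 3 (edgeR adjusted p = 0.0872). Without the libraries labelled colon replicate 2, Erbb3 had a log2 fold change of -1.03 (edgeR adjusted p = 0.0742) and Erbb2 one of -0.63 (edgeR adjusted p = 0.150), so that 0 members were called. DESeq2 on the same 7 libraries called Erbb3 (adjusted p = 0.0188) and not Erbb2 (adjusted p = 0.117).

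The ligands had wide errors. Areg had a log2 fold change of 1.85 for colon over small intestine (SE 1.06, edgeR adjusted p = 0.319) and Egf one of 1.63 (SE 0.605, edgeR adjusted p = 0.137). For Egf, DESeq2 gave an adjusted p of 0.0263, and no other alternative called it. Btc had a log2 fold change of -0.38, Hbegf one of -0.24, Tgfa one of 0.08, Epgn one of -0.52 and Ereg one of -1.13, with edgeR adjusted p from 0.446 to 0.871. Of the 7 ligands 3 had a positive value, and their median was -0.24, beside -0.00030 for all genes tested.

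**Figure D3:**
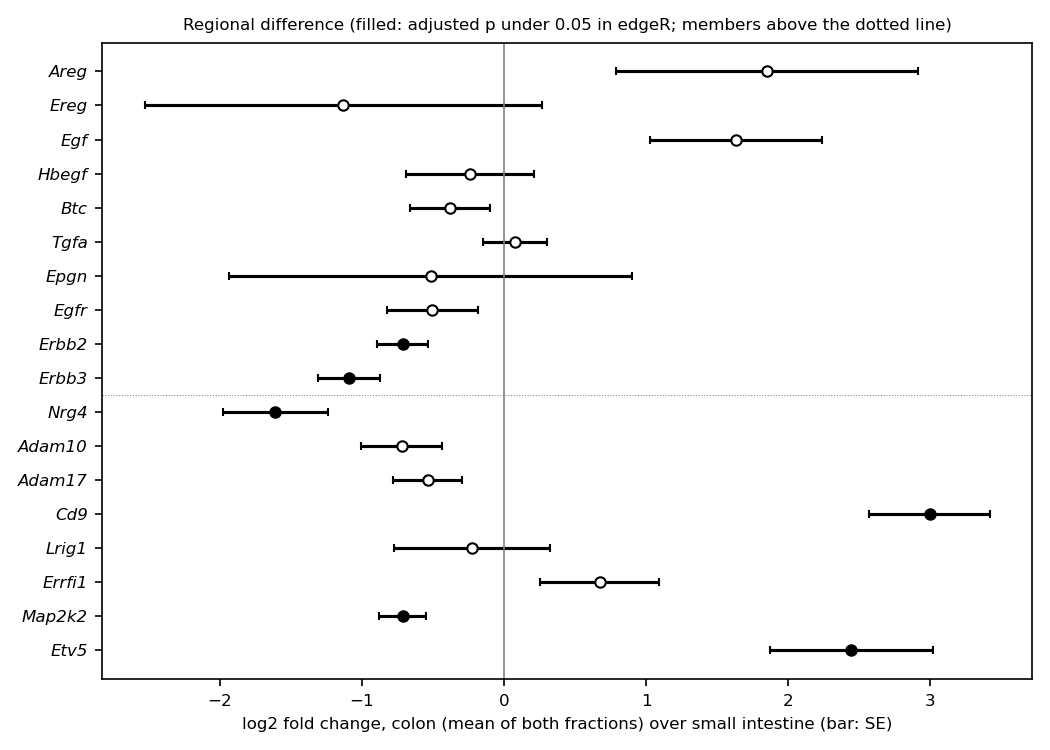
Log2 fold change of colon (mean of both fractions) over small intestine with its standard error, for the 10 members above the dotted line and 8 named pathway genes below it. Filled points passed an adjusted p under 0.05 in edgeR: Erbb2, Erbb3, Nrg4 and Map2k2 lie to the left of 0, and Cd9 and Etv5 to the right.

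Markers of other cell states moved with region in both directions, and their part in the receptor difference was not tested. The 10 stem cell markers summed to 321 to 1643 CPM in colon and 6065 to 11626 CPM in small intestine, the 11 Paneth cell markers to 33.2 to 5204 and 17772 to 28723 CPM, and the 10 small intestinal enterocyte markers to 156 to 369 and 753 to 38860 CPM. A sum follows the most abundant genes of its list. The median log2 fold change of the stem cell markers was -1.43 (1 of 10 called). It was -10.5 for the Paneth cell markers (9 of 11 called) and -7.67 for the enterocyte markers (9 of 10 called). Other lists had positive medians: 2.89 for goblet and deep crypt secretory markers (5 of 9 called) and 1.29 for colonocyte markers (2 of 9 called). The medians of the mast cell (2 of 6 called), immune cell (0 of 17 called) and enteroendocrine markers were 3.76, 3.50 and 1.95. Of the 12 enteroendocrine markers, 1 was called higher and 1 lower in colon. Within small intestine the enterocyte sum was 38860, 753 and 9225 CPM in libraries 1, 2 and 3. Erbb2 stood at 83.1, 72.0 and 80.9 CPM there and Erbb3 at 94.3, 64.7 and 102 CPM. Library 2 was the lowest of the 3 in all of these. Erbb3 was highest in library 3 and the enterocyte sum in library 1. The stem cell sum was 6065, 11626 and 10133 CPM and the Paneth cell sum 26702, 28723 and 17772 CPM, both highest in library 2. Erbb2 shares exon sequence with Mien1 on the opposite strand, and whether counting used strand is not given. Mien1 stood at 38.6 to 88.0 CPM in colon and 14.0 to 36.7 CPM in small intestine, the opposite direction to Erbb2. The antisense genes over Ereg, Egf and Egfr that were in the table reached at most 0.640 CPM.

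Some library names share an ending, and differences were taken within those names too. For Erbb3 the log2 difference to the small intestinal library of the same ending was -0.81 and -0.51 for the libraries labelled colon GFP-high 1 and colon GFP-negative 1, and -1.04 for colon GFP-high 3. For Erbb2 these differences were -0.54, -0.39 and -0.60. All lay below 0, as any such difference must where every colon library lies below every small intestinal one. The libraries labelled colon GFP-high 1 and colon GFP-negative 1 were both set against small intestine 2. For Egf the differences were 2.72, 2.38 and 0.21, and for Areg 0.76, 2.05 and 2.53.

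Each colon fraction was also compared with small intestine on its own, and both comparisons share the same 3 small intestinal libraries. For colon GFP-high, 5.69% of genes were called (1.75% lower in colon), and of the 10 members Erbb3 was called with a log2 fold change of -1.16 (SE 0.263, edgeR adjusted p = 0.0386). That call remained in 4 of 19 alternatives and had an edgeR adjusted p of 0.206 without the libraries labelled colon replicate 2. Leaving out 1 library lost it in 7 of 9 cases, the exceptions being small intestine 2 and colon GFP-negative 3. Erbb2 had a log2 fold change of -0.77 (SE 0.216, edgeR adjusted p = 0.0796). For colon GFP-negative, 5.66% of genes were called and no member was. Erbb3 had a log2 fold change of -1.03 (SE 0.263, edgeR adjusted p = 0.0584) and Erbb2 one of -0.66 (SE 0.216, edgeR adjusted p = 0.127). For Areg the log2 fold change against small intestine was 2.03 in colon GFP-high and 1.68 in colon GFP-negative, and the latter was -0.10 without the library labelled colon GFP-negative 3.

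No member differed detectably between the labelled colon fractions. edgeR called 0 of 20610 genes, which is 0%, and 226 genes (1.10%) had an unadjusted p under 0.05. DESeq2 called 1 gene and limma-voom 0. All 10 members had an edgeR adjusted p of 1. The receptors had log2 fold changes of colon GFP-high over colon GFP-negative of -0.17 for Egfr (SE 0.375), -0.11 for Erbb2 (SE 0.215) and -0.13 for Erbb3 (SE 0.260). Among the ligands, Tgfa had 0.31 (SE 0.261), Hbegf 0.21 (SE 0.525), Btc -0.28 (SE 0.332), Egf 0.0035 (SE 0.645), Areg 0.36 (SE 1.12), Ereg 0.65 (SE 1.68) and Epgn 3.23 (SE 1.86). The Epgn value rested on 74 and 36 counts in the libraries labelled colon GFP-high 1 and 3, beside 0 to 6 counts in colon GFP-negative.

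Without the libraries labelled colon replicate 2, edgeR again called 0 genes, 1582 genes had an unadjusted p under 0.05, and DESeq2 called 700 genes and limma-voom 2, none of them a member. The log2 fold change of Areg was then -0.04, that of Hbegf -0.04, that of Erbb2 0.03 and that of Erbb3 0.05. Scaling by total counts moved the median of all genes in this comparison from -0.016 to 0.13, and with it Erbb2 to 0.07 and Erbb3 to 0.05.

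The rest of the pathway was described by 7 lists with 76 gene IDs in the table, more than 1 of them for Nrg1. Of these 69 were tested, and the background shares of called genes are those given above. Between the regions 4 of the 69 were called: Cd9 and Etv5 were higher in colon, and Nrg4 and Map2k2 were lower. The median log2 fold change over the 69 was -0.028, and 33 were positive. For colon GFP-high against small intestine 2 were called, both higher in colon (Cd9 and Etv5). For colon GFP-negative against small intestine 1 was called higher (Cd9) and 1 lower (Map2k2), and between the colon fractions 0 were called. Without the libraries labelled colon replicate 2, Cd9 and Nrg4 were called between the regions and Cd9 in each fraction against small intestine, and 0 were called between the fractions.

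Of the neuregulins, which are ligands of Erbb4 and only in part of Erbb3, only Nrg4 passed the filter on low counts. It stood at 3.68, 2.65 and 5.70 CPM in the libraries labelled colon GFP-high 1, 2 and 3, at 2.90, 4.70 and 1.84 CPM in those labelled colon GFP-negative and at 7.87, 11.5 and 13.1 CPM in small intestine. All 6 colon libraries lay below the 3 small intestinal ones. The log2 fold change was -1.61 (SE 0.372, edgeR adjusted p = 0.0300). It was called in 3 of 9 fits that left out 1 library, and without the libraries labelled colon replicate 2 it was -1.70 (edgeR adjusted p = 0.0440). Erbb4, a neuregulin receptor, had no count in 8 libraries and 0.0372 CPM in 1, labelled colon GFP-high 3. Nrg3 was at 0 in every library, Nrg1 (ENSMUSG00000062991.10) reached 0.392 CPM and Nrg2 reached 0.772 CPM.

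Among the proteases and trafficking genes, Cd9 was called in 1 direction in every regional comparison. Cd9 encodes a tetraspanin that associates with the Hbegf precursor in the membrane. It stood at 847, 1388 and 597 CPM in the libraries labelled colon GFP-high 1, 2 and 3, at 1214, 703 and 1252 CPM in those labelled colon GFP-negative and at 119, 174 and 82.3 CPM in small intestine. All colon libraries were above all small intestinal ones, with a log2 fold change of 3.00 (SE 0.424, edgeR adjusted p = 0.00378), and the call remained when each library was left out in turn. Adam17, the main sheddase of Areg, Tgfa and Hbegf, had 12.3 to 22.8 CPM in colon and 25.0 to 26.9 CPM in small intestine (log2 fold change -0.54, SE 0.245, edgeR adjusted p = 0.213). Its regions did not overlap, yet it was not called. Adam10, a sheddase of Egf and Btc, had 17.5 to 45.2 CPM in colon and 42.6 to 58.0 CPM in small intestine (log2 fold change -0.72, SE 0.286, edgeR adjusted p = 0.162).

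Of the 12 negative regulators of the receptors 0 were called between the regions. Lrig1, a transmembrane inhibitor of ErbB receptors and a marker of crypt cells, ranged from 26.0 to 115 CPM in colon and from 40.4 to 103 CPM in small intestine (log2 fold change -0.22, SE 0.546, edgeR adjusted p = 0.840). In colon it had 87.1, 26.0 and 95.6 CPM in the libraries labelled GFP-high 1, 2 and 3 and 42.5, 115 and 27.3 CPM in those labelled GFP-negative 1, 2 and 3, so the 3 high libraries were those with more Lgr5. Errfi1, a cytoplasmic inhibitor of the Egfr kinase, ranged from 15.1 to 65.0 CPM in colon and from 20.2 to 31.9 CPM in small intestine (log2 fold change 0.67, SE 0.418, edgeR adjusted p = 0.357).

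Of the 10 tested Spry, Spred and Dusp feedback genes and the 9 genes of the PI3K arm 0 were called. The 17 adaptors and MAPK cascade genes held 1 call, Map2k2, which encodes the kinase MEK2. It stood at 214 to 286 CPM in colon and 389 to 464 CPM in small intestine, with no overlap and a log2 fold change of -0.71 (SE 0.167, edgeR adjusted p = 0.0316). The call was lost when any 1 library was left out, with edgeR adjusted p from 0.0589 to 0.0985. Of 10 transcripts induced by the pathway 1 was called: Etv5, an ETS factor transcribed downstream of MAPK signalling. It stood at 31.3 to 93.5 CPM in colon and at 3.65, 11.6 and 18.5 CPM in small intestine, with no overlap and a log2 fold change of 2.45 (SE 0.571, edgeR adjusted p = 0.0313). It was called in 4 of 9 fits that left out 1 library, and its edgeR adjusted p was 0.0627 without the libraries labelled colon replicate 2.

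The members fell into steady and variable genes, measured by the standard deviation of log2 CPM over the 6 colon libraries. Erbb2 (0.225), Tgfa (0.235) and Erbb3 (0.256) lay at the 8.13th, 9.35th and 11.9th percentile of all genes tested. Btc (0.382), Egfr (0.546), Egf (0.566) and Hbegf (0.756) were in the middle, beside a median of 0.593 over all genes. Areg (1.81), Epgn (1.93) and Ereg (2.19) lay at the 86.7th, 88.8th and 92.3rd percentile. Epgn had 0 to 74 and Ereg 0 to 77 counts per colon library, whereas Areg had 135 to 2590. In the 3 small intestinal libraries Erbb2 had a standard deviation of 0.113, Egfr one of 0.118, Erbb3 one of 0.353 and Areg one of 1.14, beside a median of 0.517 over all genes.

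**Figure D4:**
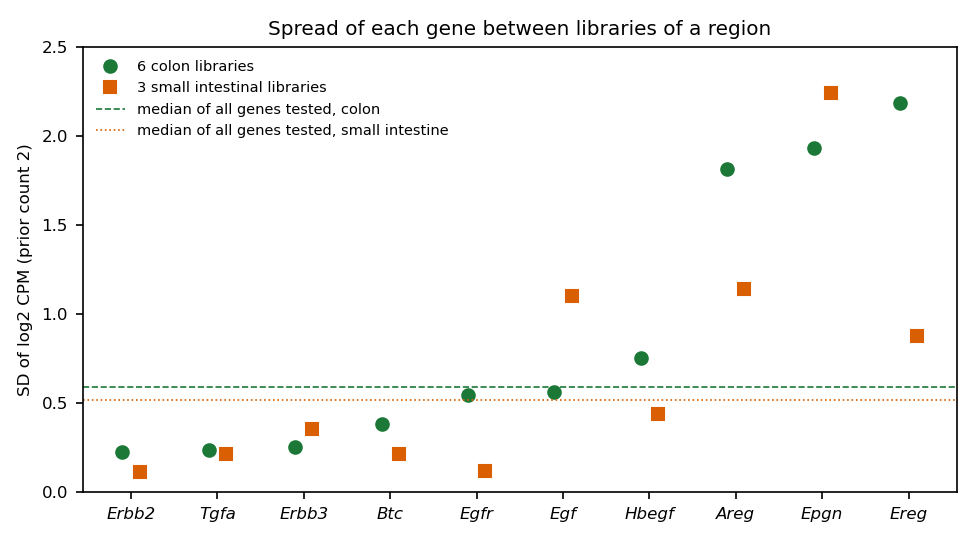
Standard deviation of log2 CPM (prior count 2) of each member over the 6 colon libraries (circles) and the 3 small intestinal libraries (squares), with the median over all genes tested as lines. Erbb2, Tgfa and Erbb3 lie below both medians, and Areg, Epgn and Ereg lie far above them.

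Patterns over the 9 libraries were compared by the root mean square difference of centred log2 CPM, among 10259 genes with a mean of at least 5 CPM, as a description without a test. The genes nearest to Erbb2 were Vdac1 (0.0840) and Shroom3 (0.107), and those nearest to Erbb3 were Actn4 (0.0934) and Ddi2 (0.155). The receptors Erbb2 and Erbb3 differed from each other by 0.222, and each was the other's nearest member. Egfr was nearest to Mtif2 (0.168) and Pros1 (0.169), and its nearest member was the ligand Btc, at 0.209. Btc was nearest to Kbtbd2 (0.116) and Zfp110 (0.125), and Tgfa to Pip4k2c (0.149) and Fbxw9 (0.156). Hbegf was nearest to Gtpbp2 (0.291) and Leng9 (0.323), and Egf to Celsr1 (0.394) and Sgsm3 (0.402). Areg had no close match: its nearest genes were Mgll (0.689) and Bnip3 (0.741), and its nearest member was Hbegf, at 1.22. Small differences are easier to reach for genes that vary little, so these values do not rank the members.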

How the data were processed

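Polyadenylated RNA of 9 libraries was sequenced. The tools named in the submitters' processing notes are STAR, Subread's featureCounts and edgeR, with the build mm10. Their versions, the annotation release, the strand setting and the treatment of multi-mapping reads are not given in the sources used for this text. Per the file headers, the deposited table holds the read count of each gene, a TMM factor per library, which is a ratio, and log2 expression values made by the authors, which were not used in the tests. Gene length came from the same table.

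CPM was computed as the count over the library total times the deposited TMM factor, and RPKM as CPM per kilobase of gene length. Counts were tested in R 4.3.3 with edgeR 4.0.16 (filterByExpr by group, TMM, 1 quasi-likelihood fit of all 9 libraries, two-sided, Benjamini-Hochberg adjustment over 20610 genes, called under 0.05). A further 57629 genes were not tested. The coefficient of variation between libraries estimated by edgeR was 0.726. DESeq2 1.42.0, limma 3.58.1, other scalings and filters, blocks and left-out libraries were alternatives, and the scripts were tested on simulated data. The members, pathway lists, marker lists and rule for named genes were chosen with earlier results of these data known. The fits without the libraries labelled colon replicate 2 in DESeq2 and limma-voom were added after seeing the data. By that rule, all members, all called pathway genes and 7 further genes are named with values, and the 2 genes of nearest pattern are named for each member with a mean of at least 1 CPM. Log2 CPM used a prior count of 2. Gene IDs were matched to GENCODE M21 for coordinates, which may differ from the authors' annotation.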

Additional observations from a re-analysis of the deposited data

How the results depend on the processing

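Between colon and small intestine, the directions of Areg, Ereg, Egf, Btc, Egfr, Erbb2 and Erbb3 were the same in all 18 alternatives, while calls were not. Erbb3 was called in 13 of 18, Erbb2 in 2 and Egf in 1. Leaving out 1 library gave 991 to 1787 genes called (0 to 1 members) against 1812 (2 members) for colon against small intestine, 564 to 1375 (0 to 1) against 1173 (1) for colon GFP-high against small intestine, 531 to 1078 (0) against 1166 (0) for colon GFP-negative against small intestine, and 0 (0) between the fractions. The member levels moved by less than 1 SD under total-count scaling. Leaving 1 of 3 libraries out cannot move a group mean by 1 SD, so that measure says nothing about the libraries labelled colon replicate 2. Among the members, counting depth bears most on Ereg and Epgn, which had 0 counts in some libraries.

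In the same order of comparisons, with the number of members in parentheses, DESeq2 called 3618, 2713 (2) and 2870 (1) genes and 1 between the fractions. In the first of these it called the members Erbb3 (DESeq2 adjusted p = 0.00049), Erbb2 (0.0083) and Egf (0.026). Counts not given here differed from those of the main fit by a ratio of at most 1.5. Total-count scaling called 1 and 0 members in the first 2 comparisons, as did no filter on low counts, and the fit of 2 groups alone called 0 members for colon GFP-high against small intestine. Without the libraries labelled colon replicate 2, edgeR called 1089 (0), 508 (0) and 895 (0), DESeq2 2845 (1), 1879 (0) and 3148 and 700 between the fractions, and limma-voom 0 members, 603 (0) and 2 between the fractions. The cause of these differences was not tested.

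With the replicate number as a block, 895 (1), 508 (0) and 532 genes were called, and with the ending of the library name as a block 18 (0), 18 (0) and 0. For colon against small intestine, Erbb3 (edgeR adjusted p = 0.0447) and Cd9 (0.0189) were called with the number as block, and Erbb2 (0.0868), Nrg4 (0.0963), Etv5 (0.0990) and Map2k2 (0.0677) were not. With the name ending as block none of the 6 was called (0.170 for Cd9 to 0.515 for Erbb2). Deviations from the group means correlated between -0.604 and 0.303 for libraries of the same number and between -0.604 and 0.275 for those of the same ending. The value of -0.604 is that of the 2 libraries labelled colon replicate 2, where Lgr5 went against the labels. These correlations therefore cannot decide whether number or ending pairs the samples. The main fit used no block because the labels do not say that either marks 1 animal.

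Values that changed sign were all uncalled, and the cause was not tested. Between the fractions, leaving out 1 library gave log2 fold changes of -0.67 to 2.13 for Areg, -1.06 to 1.36 for Ereg, -0.42 to 0.21 for Egf, -0.36 to 0.53 for Hbegf, -0.44 to 0.11 for Egfr, -0.24 to 0.042 for Erbb2, -0.36 to 0.017 for Erbb3, -0.55 to 0.067 for Cd9, -0.17 to 0.99 for Lrig1, -0.18 to 0.59 for Errfi1 and -0.15 to 0.66 for Etv5. For colon against small intestine it gave -0.016 to 0.15 for Tgfa, -1.09 to 1.85 for Epgn and -0.63 to 0.028 for Lrig1. Hbegf lay at -0.67 to 0.22 and Lrig1 at -0.44 to 0.26 for colon GFP-high against small intestine. For colon GFP-negative against small intestine it gave -0.10 to 2.19 for Areg, -2.70 to 0.24 for Epgn and -1.12 to 0.033 for Lrig1.

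The block by name ending gave -1.16 for Ereg, -0.39 for Egf, -0.15 for Nrg4, 0.27 for Cd9, -0.50 for Lrig1, -0.16 for Errfi1 and -0.21 for Etv5 between the fractions. It gave 0.20 for Hbegf and 0.75 for Epgn in colon against small intestine, 0.24 for Hbegf in colon GFP-high against small intestine, and 0.16 for Hbegf, 0.15 for Tgfa, 0.20 for Epgn and 0.14 for Lrig1 in colon GFP-negative against small intestine. Egf was -0.025 with the number as block and -0.0034 with no filter, and total-count scaling gave 0.070 for Erbb2 and 0.047 for Erbb3, all between the fractions. With limma-voom Errfi1 was -0.057 between the fractions and Epgn 0.026 in colon against small intestine.

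Without the libraries labelled colon replicate 2, the fraction values in edgeR were -0.045 for Areg, -0.036 for Hbegf, 0.030 for Erbb2, 0.046 for Erbb3 and -0.14 for Errfi1. DESeq2 gave -0.090 for Areg, -0.079 for Hbegf, 0.0052 for Erbb3 and -0.18 for Errfi1, and limma-voom -0.63 for Areg, -0.27 for Hbegf, 0.0366 for Erbb2, 0.0367 for Erbb3 and -0.48 for Errfi1. Lrig1 in colon GFP-high against small intestine was then 0.26 with edgeR, 0.27 with DESeq2 and 0.36 with limma-voom. DESeq2 gave Hbegf 0.011 in colon against small intestine, and Hbegf 0.050 and Tgfa 0.031 in colon GFP-negative against small intestine, and limma-voom gave Epgn 0.38 in colon against small intestine and Hbegf 0.046 in colon GFP-negative against small intestine.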
